A study of Homo sapiens with 4 samples.

Results

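The genes of Polycomb repressive complex 2 (PRC2) were examined in T24 cells with and without forced expression of CBX7. T24 is an established cell line from a human bladder carcinoma. The members are 10 genes given by name, 6 core subunits (EZH1, EZH2, SUZ12, EED, RBBP4 and RBBP7) and 4 accessory subunits (JARID2, AEBP2, MTF2 and PHF19), and each was found as 1 row among the 60623 genes of the deposited table. Total RNA was sequenced from 2 libraries of control T24 cells and 2 libraries of T24 cells overexpressing CBX7, all grown in RPMI with FCS per the labels. According to the methods, full-length CBX7 was cloned into a FLAG-tagged pCDH vector. The sources used here do not state whether the overexpressing line was 1 clone or a pool, what the control cells carried, or whether the 2 libraries of a group came from separate cultures. The p-values therefore measure only the spread between these libraries, which may be technical.

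PRC2 is a histone methyltransferase. EZH2 or its paralog EZH1 supplies the catalytic SET domain that methylates lysine 27 of histone H3, and the enzyme works only when bound to the scaffold SUZ12 and to EED. EED also binds the finished mark, H3K27me3, which lets the complex spread along chromatin. CBX proteins of PRC1, CBX7 among them, read the same mark through a chromodomain, so that PRC2 writes what CBX7 reads. EZH2 is typical of dividing cells and EZH1 of resting ones. The accessory subunits define alternative forms of the complex: the Polycomb-like proteins MTF2 and PHF19 belong to PRC2.1, and JARID2 and AEBP2 to PRC2.2.

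The starts of the genes for the alternative catalytic subunits, EZH2 and EZH1, are shown first, because the ratio of their levels is followed through the results. Each line gives the 250 bases before the RefSeq transcript start (GRCh38.p14), 5′ to 3′ on the strand of the gene, with the CCAAT box (CCAAT or its reverse complement) in capitals. RefSeq gives EZH2 2 starts, and the window printed is that of the start at the 5′ end of the GENCODE gene, at chr7:148884292-148884541 on the minus strand. The EZH1 window lies at chr17:42745041-42745290 on the minus strand.
EZH2: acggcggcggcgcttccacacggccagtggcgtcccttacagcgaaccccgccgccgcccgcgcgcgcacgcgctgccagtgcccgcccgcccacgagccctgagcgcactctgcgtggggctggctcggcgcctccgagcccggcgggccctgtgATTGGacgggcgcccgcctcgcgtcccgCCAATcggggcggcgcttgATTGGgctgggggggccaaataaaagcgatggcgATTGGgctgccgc
EZH1: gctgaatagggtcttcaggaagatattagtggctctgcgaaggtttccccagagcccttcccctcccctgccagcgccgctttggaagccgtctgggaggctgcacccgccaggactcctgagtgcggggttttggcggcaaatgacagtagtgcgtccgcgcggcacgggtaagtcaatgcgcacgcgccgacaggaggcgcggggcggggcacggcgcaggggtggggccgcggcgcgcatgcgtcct
The EZH2 window shown holds 4 CCAAT matches and the EZH1 window 0. The window of the other EZH2 start, at chr7:148883486-148883735, holds 0 as well, so the difference in matches depends on the start chosen. Over all 35116 promoter windows of the same length, 32.0% hold at least 1 match, as do 10 of the 15 windows of the 10 members, several of which have 2 starts and so share a gene. The E2F-type letters TTTCCCGC, TTTGGCGC and TTTCGCGC were searched on both strands as well. They are in neither window shown, in 2 of the 15 member windows (SUZ12 and PHF19) and in 2.32% of all windows. Both windows are rich in CG, with 38 CpG dinucleotides for EZH2 (39 at its other start) and 26 for EZH1 against a median of 11.

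The expected counts summed to between 20800910 and 25135488 per library. For a gene listed at 0 the limit is 3 counts, which is 0.119 to 0.144 CPM (counts scaled to a common library total) and covers counting error only. CBX7 itself had 4.98 and 3.73 TPM (a transcript level scaled by length and by library total) in the control libraries and 610.1 and 607.2 TPM in the CBX7 libraries, so all 4 labels matched the overexpressed gene. Of 13 epithelial and urothelial markers, KRT7, KRT8, KRT18 and PPARG were at 10 TPM or more in every library. Another 8, among them CDH1, GATA3, TP63, the 4 uroplakins and KRT5 (listed at 0), were under 1 TPM in every library. Of 10 markers of leukocytes, endothelium, fibroblasts and muscle, 9 were under 1 TPM in every library, and CD68 had 6.29 to 11.5 TPM. The summed level of the 10 was 12.6 and 10.9 TPM in control and 7.2 and 8.7 TPM in CBX7 libraries. The 3 of them that could be tested had a median log2 fold change of -0.597. In edgeR 0 of the 3 passed an adjusted p of 0.05 and 1, CD68, an unadjusted one. CD68 was lower in both CBX7 libraries. Of all genes tested, 0.0202% passed the adjusted and 4.74% the unadjusted threshold. The sum of the 13 epithelial markers was 3266.2 and 3167.6 TPM in control and 3736.2 and 3360.7 TPM in CBX7 libraries, higher in both. The 6 of them that could be tested had positive log2 fold changes (median 0.289), as did 7472 of all 14862 genes tested. Their median log2 ratio of CBX7 to control was 0.47 between the replicate 1 libraries and 0.038 between the replicate 2 libraries. In edgeR 0 of the 6 passed an adjusted p of 0.05 and 1, GATA3, an unadjusted one, at 0.17 to 0.82 TPM. The part of either list in the results was not tested.

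All 10 PRC2 genes were transcribed in every library, over a wide range of levels. RBBP7, a histone-binding WD40 protein, was the most abundant, at 199.99 and 197.8 TPM in control and 186.2 and 192.7 TPM in CBX7 libraries. PHF19, a Polycomb-like subunit with a Tudor domain, came next, at 124.2 and 125.4 TPM in control and 133.1 and 125.5 TPM in CBX7 libraries. RBBP4, the close paralog of RBBP7, had 83.2, 91.0, 64.8 and 90.0 TPM in control replicates 1 and 2 and CBX7 replicates 1 and 2. These 3 did not overlap each other or any other member in any library. Both RBBP proteins also serve other chromatin complexes, such as NuRD and CAF-1, so their transcripts are not a measure of PRC2 alone.

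On the TPM scale the subunits that make up the catalytic centre lay below them, although by counts per kilobase of deposited length EED, EZH2 and SUZ12 were above RBBP4. EED was at 37.4 and 41.0 TPM in control and 36.5 and 38.8 TPM in CBX7 libraries, above EZH2 in all 4. EZH2 was at 28.0 and 32.2 TPM in control and 24.04 and 29.3 TPM in CBX7 libraries. SUZ12 was at 24.6 and 27.9 TPM in control and 17.6 and 30.3 TPM in CBX7 libraries. EZH2 and SUZ12 did not separate, since their ranges overlapped and EZH2 was the higher of them in only 3 of the 4 libraries.

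Most of the accessory subunits were scarce. AEBP2, a zinc finger protein that stimulates the enzyme, had 19.5 and 23.4 TPM in control and 13.6 and 23.5 TPM in CBX7 libraries. MTF2 had 11.6 and 15.1 TPM in control and 11.4 and 15.4 TPM in CBX7 libraries. AEBP2 stood below SUZ12 and above MTF2 in each of the 4 libraries, although the ranges of these neighbours overlapped. JARID2, a catalytically inactive Jumonji protein that helps to recruit PRC2, was the lowest member at 5.25 and 6.20 TPM in control and 3.56 and 6.04 TPM in CBX7 libraries. EZH1 stood just above it and below MTF2, with ranges apart from both.

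**Figure D1:**
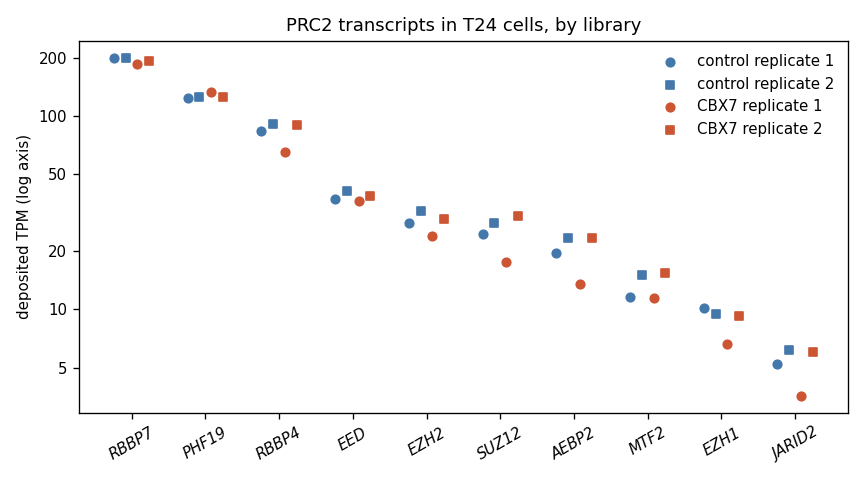
Deposited TPM (log axis) of the 10 PRC2 genes in each library, ordered by mean level, with control in blue, CBX7 in orange, circles for replicate 1 and squares for replicate 2. Levels run from 199.99 TPM for RBBP7 to 3.56 TPM for JARID2, and CBX7 replicate 1 is the lowest library for 9 of the 10 genes in TPM (against 58.5% of all genes tested) and for 5 of the 10 in CPM (against 38.6%).

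EZH2 was the predominant catalytic transcript of T24 cells. EZH1 was at 10.2 and 9.52 TPM in control and 6.61 and 9.30 TPM in CBX7 libraries, and EZH2 exceeded it 2.75- and 3.38-fold in control replicates 1 and 2 and 3.64- and 3.15-fold in CBX7 replicates 1 and 2. The EZH2 level lay above the EZH1 level in all 4 libraries with no overlap. On the log2 scale the EZH2 to EZH1 ratio was 1.61 ± 0.212 in control and 1.76 ± 0.146 in CBX7 libraries (SD, n = 2 each), a difference of 0.15 that was within the spread (exact two-sided permutation test over 4 libraries, p = 0.667). With 2 libraries against 2, the smallest p this test can give is 0.33. Library number 1 gave a difference of 0.41 and library number 2 a difference of -0.10, in opposite directions. The difference was 0.00252 without control replicate 1, 0.302 without control replicate 2, 0.0491 without CBX7 replicate 1 and 0.255 without CBX7 replicate 2.

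The response of the members to CBX7 was tested with edgeR on the counts of 14862 genes. CBX7 rose by 7.35 on the log2 scale, with an adjusted p of 0.000584 in the quasi-likelihood test of edgeR. None of the 10 PRC2 genes had an adjusted p under 0.05, against 0.0202% of all genes tested, and the lowest adjusted p among them was 0.951. At an unadjusted p under 0.05 the count was again 0 of 10, against 4.74% of all genes. DESeq2's Wald test called 0 of 10 by either threshold, against 67 of 14862 genes by the adjusted and 428 by the unadjusted one. The log2 fold changes ran from -0.23 to 0.08 with a median of -0.042, beside a median of 0.0017 over all genes tested, and 6 of the 10 were negative. The 95% intervals of the 10 fold changes, not adjusted for their number, lay between 0.634-fold and 1.34-fold. The interval of each single gene was narrower than this span, as with 0.763- to 1.19-fold for EZH2. In RNA of a whole culture, fewer cells with a transcript and less transcript per cell cannot be told apart.

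Of the catalytic subunits, EZH1 had the larger estimate. Its TMM-normalized level, which scales each library by its total and composition, was 20.5 and 19.4 CPM in control and 15.7 and 18.3 CPM in CBX7 libraries, so that both CBX7 libraries lay below both control libraries. The log2 fold change was -0.23 (standard error 0.15, 95% interval -0.61 to 0.14, adjusted p = 0.951 from edgeR), and it was -0.12 without CBX7 replicate 1 and -0.35 without CBX7 replicate 2. EZH2 was at 51.7 and 54.6 CPM in control and 50.4 and 50.8 CPM in CBX7 libraries. The CBX7 libraries again lay below the controls, by less, with a log2 fold change of -0.07 (standard error 0.128, 95% interval -0.39 to 0.25).

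The scaffold SUZ12 differed between the CBX7 libraries more than between the controls, as did every other member but EZH2 and RBBP4 in CPM. It had 82.0 and 88.7 CPM in control and 68.1 and 95.1 CPM in CBX7 libraries, so that the CBX7 libraries enclosed the controls on both sides. Its log2 fold change was -0.07 with a 95% interval from -0.55 to 0.42. EED, the reader of the mark within PRC2, had 44.2 and 46.4 CPM in control and 50.9 and 43.0 CPM in CBX7 libraries, with a log2 fold change of 0.05 (standard error 0.146). Here too the controls lay inside the range of the CBX7 libraries, with CBX7 replicate 1 this time the higher.

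The histone chaperones were nearly level. RBBP4 was at 119.2 and 111.1 CPM in control and 111.1 and 107.6 CPM in CBX7 libraries, with a log2 fold change of -0.07 (standard error 0.128). RBBP7 was at 291.5 and 279.2 CPM in control and 312.0 and 269.5 CPM in CBX7 libraries, with a log2 fold change of 0.03 (standard error 0.137). In RBBP4, as in EZH1 and EZH2, both CBX7 libraries were below both controls, although control replicate 2 and CBX7 replicate 1 of RBBP4 were equal at the precision given. These 3 of 10 members compare with 14.8% of all genes tested, and 0 of 10 lay above both controls, against 15.4%. On the TPM scale both CBX7 libraries were below both controls for EZH1 and RBBP7 (2 of 10, against 17.4% of all genes tested) and above both for PHF19 (1 of 10, against 12.2%), so of the 3 genes separated in CPM only EZH1 was separated in the same direction in TPM.

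Of the accessory subunits, JARID2 had 22.8 and 25.6 CPM in control and 18.1 and 24.8 CPM in CBX7 libraries, and the log2 fold change was -0.18 (standard error 0.194, 95% interval -0.66 to 0.31). MTF2 had an estimate of 0.08 (standard error 0.134), from 28.0 and 28.6 CPM in control and 28.5 and 31.5 CPM in CBX7 libraries. The MTF2 libraries overlapped between the groups, and the estimate was 0.159 without CBX7 replicate 1 and 0.00763 without CBX7 replicate 2. AEBP2 and PHF19 were closest to 0, with log2 fold changes of -0.02 and 0.01. AEBP2 had 39.4 and 41.5 CPM in control and 37.0 and 42.9 CPM in CBX7 libraries, and PHF19 135.9 and 129.9 CPM in control and 140.7 and 126.6 CPM in CBX7 libraries.

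**Figure D2:**
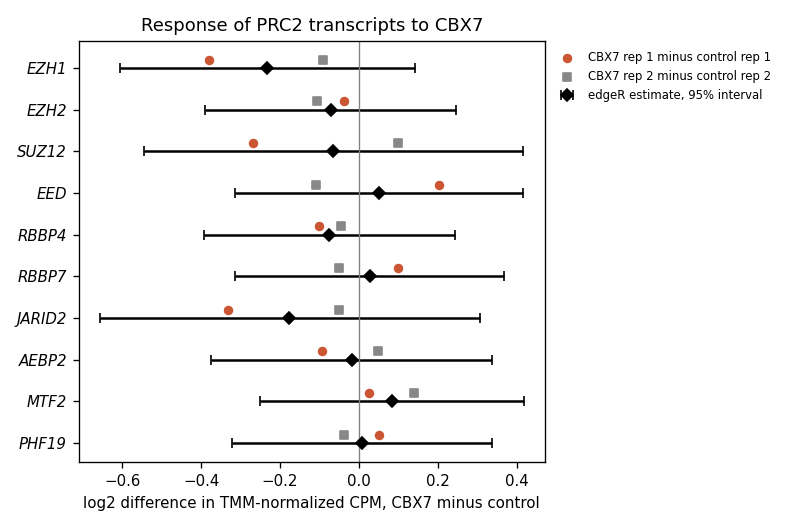
Log2 difference between CBX7-overexpressing and control T24 cells in TMM-normalized CPM. Black diamonds with bars are edgeR estimates with 95% intervals, orange circles compare replicate 1 of each group and grey squares replicate 2. All 10 intervals cross 0, and the circles of EZH1 (-0.38), JARID2 (-0.33) and SUZ12 (-0.27) stand far to the left of their squares.

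Replicate 1 and replicate 2 gave different pictures of the same genes. Between the replicate 1 libraries the log2 ratio of CBX7 to control was -0.38 for EZH1, -0.33 for JARID2 and -0.27 for SUZ12, and between the replicate 2 libraries it was -0.09, -0.05 and 0.10. When CBX7 replicate 2 was left out, these 3 genes passed the threshold with lower levels, at log2 fold changes of -0.35, -0.42 and -0.33 and adjusted p-values of 0.0372, 0.00684 and 0.0144 (edgeR, with the lone CBX7 library assumed to vary like the controls). In that fit 17.3% of all genes were called lower and 35.5% were called in either direction, so 3 calls among 10 members in either direction is near the background. When CBX7 replicate 1 was left out, 0 of 10 passed, and SUZ12 and JARID2 were at 0.16 and 0.04.

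The difference between the replicates ran with gene length and GC content. Among the 11077 genes whose counts averaged 100 or more, Spearman's rho between deposited gene length and the CBX7 to control log2 ratio was -0.622 in the replicate 1 pair and 0.0424 in the replicate 2 pair. For GC content in place of length it was 0.413 and 0.0659, and the parts of length and GC were not separated. These are correlations across genes of the same libraries, and genes are not independent replicates. Among the PRC2 genes, EED with 1791 bases and RBBP7 with 2036 bases had ratios of 0.20 and 0.10 in replicate 1. EZH1 with 4633 bases and JARID2 with 6003 bases were the lowest. RBBP4, the longest at 7883 bases, was at -0.10. The decile of genes with a median length of 1884 bases had a median ratio of 0.158 in replicate 1, and the decile with 6091 bases had -0.259. After a correction of each library for its trend with length and GC content, EZH1 was at -0.17 (adjusted p = 0.729) and JARID2 at -0.09 (adjusted p = 0.821), while SUZ12, RBBP4 and AEBP2 moved from below 0 to 0.03, 0.13 and 0.10 and PHF19 from 0.01 to -0.01. MTF2 then had the estimate farthest from 0, at 0.18 (adjusted p = 0.701). None of the 10 passed after it, and 4 of 10 were then negative.

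**Figure D3:**
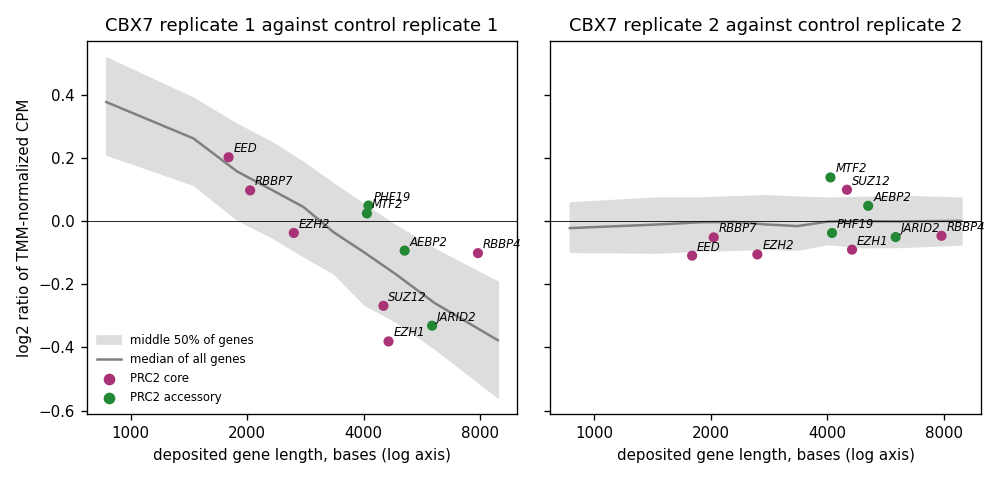
Log2 ratio of TMM-normalized CPM against deposited gene length (log axis), for CBX7 replicate 1 against control replicate 1 (left) and CBX7 replicate 2 against control replicate 2 (right). The grey line and band are the median and interquartile range of 11077 genes in length deciles, purple points are PRC2 core and green points accessory genes. The line falls from 0.378 to -0.377 on the left and stays near 0 on the right, and PRC2 genes lie both inside and outside the band in each panel.

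Summed over the subunits, the make-up of the PRC2 transcripts was compared within each library. The 6 core genes summed to 383.4 and 399.3 TPM in control and 335.8 and 390.4 TPM in CBX7 libraries. The 4 accessory genes summed to 160.6 and 170.0 TPM in control and 161.7 and 170.4 TPM in CBX7 libraries. The core to accessory ratio was 2.39 and 2.35 in control and 2.08 and 2.29 in CBX7 libraries, lower in both, a log2 difference of -0.12 with the smallest p the test can give (exact two-sided permutation test, p = 0.33). Most of it came from CBX7 replicate 1, since the difference was -0.048 without that library and -0.189 without CBX7 replicate 2. With counts per kilobase of deposited length the ratio itself was higher, 4.38 and 4.35 in control and 4.53 and 4.20 in CBX7 libraries, the controls lay inside the CBX7 range, and the difference was 0.00. RBBP7, RBBP4 and PHF19 carry most of these sums.

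PRC2.1 transcripts outnumbered those of PRC2.2. The summed TPM of MTF2 and PHF19 was 5.49 and 4.75 times that of JARID2 and AEBP2 in control and 8.44 and 4.77 times in CBX7 libraries. Only CBX7 replicate 1 stood apart, and the log2 difference of 0.31 was within the spread (exact two-sided permutation test, p = 0.667). Without CBX7 replicate 1 it was -0.10. Most of the PRC2.1 sum was PHF19, at 8.15 to 11.7 times the level of MTF2. With counts per kilobase of deposited length in place of TPM, PHF19 was at 3.98 to 4.89 times MTF2, and PRC2.1 at 3.46 and 3.11 times PRC2.2 in control and 4.01 and 3.07 times in CBX7 libraries.

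How far the members differed in level depended on the length by which a count was divided. A count per TPM, set to bases on genes with 1 annotated transcript, gives the approximate length the authors' TPM had used. For SUZ12 that length was 4512 to 4555 bases beside a deposited gene length of 4495, and for JARID2 5893 to 5938 beside 6003. RBBP7, EED and EZH2 were likewise near their deposited lengths. For RBBP4 it was 1731 to 1995 bases beside 7883, and for PHF19 1231 to 1494 beside 4113. EZH1 (2744 to 2910 beside 4633), AEBP2 (2533 to 3174 beside 5099) and MTF2 (2701 to 3293 beside 4075) were shorter too. GENCODE release 29 annotates 9 coding transcripts of RBBP4 from 580 to 7943 bases and 8 of PHF19 from 556 to 4241 bases, against 2 of SUZ12 from 3977 to 4491 and 2 of JARID2 from 5595 to 5755.

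**Figure D4:**
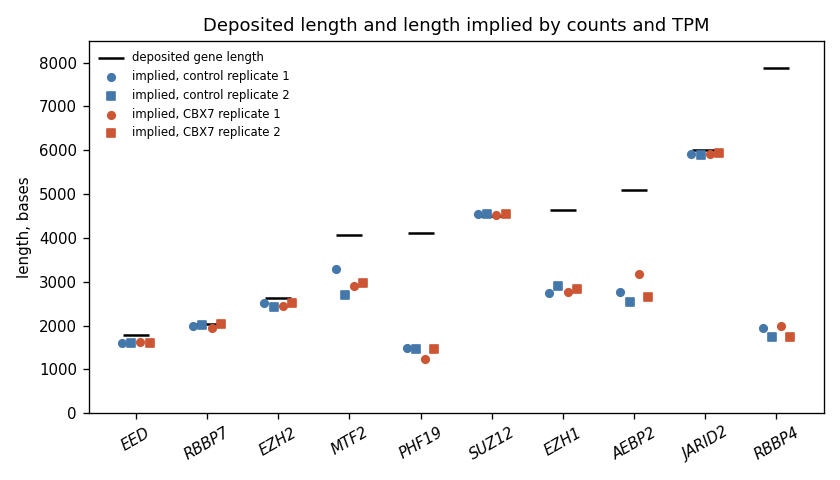
Deposited gene length (black bars, in bases) and the length implied by the deposited counts and TPM in each library, for the 10 PRC2 genes. For SUZ12, JARID2, RBBP7, EED and EZH2 the points lie at or near the bar, and for RBBP4, PHF19, EZH1, AEBP2 and MTF2 all 4 points lie clearly below it.

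With counts divided by the deposited gene length instead, RBBP7 stayed first at a mean of 141.5 CPM per kilobase and PHF19 second at 32.4. RBBP4 went from rank 3 to rank 6, at 14.2, behind EED (25.7), EZH2 (19.6) and SUZ12 (18.6). EZH2 then exceeded EZH1 4.43- to 5.62-fold over the 4 libraries, in place of 2.75- to 3.64-fold on the TPM scale, and EZH1 and JARID2 no longer separated, each being the higher in 2 libraries. The predominance of EZH2 over EZH1 held in all 4 libraries on both scales.

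Near copies of the members were looked for among rows named after them. Of 9 such rows, 8 had a count of 0 in all libraries: the pseudogenes EZH2P1 and RBBP4P1 to RBBP4P6, and the antisense gene JARID2-AS1. SUZ12P1, a partial copy of SUZ12, had 203.1 and 199.2 counts in control and 205.5 and 220.9 counts in CBX7 libraries. Fractional counts, which reads shared among genes can give, occurred in SUZ12, RBBP4, RBBP7 and AEBP2, and the other 6 had whole counts only. With the SUZ12P1 counts added in, a setting chosen after seeing the data, the log2 fold change of SUZ12 was -0.06.

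Other genes of the pathway gave 0 calls as well. PHF1 and EPOP, further PRC2.1 subunits, had log2 fold changes of 0.07 and 0.23. LCOR and LCORL, whose loci also encode the PALI subunits of PRC2.1, were at -0.16 and -0.11. EZHIP, an inhibitor of PRC2, was listed at 0 counts in all 4 libraries. None of the 4 tested passed an adjusted or an unadjusted p of 0.05 in edgeR. The H3K27 demethylases KDM6A and KDM6B, which remove the mark, had log2 fold changes of -0.19 and -0.15, with 0 of 2 past either threshold. Of 17 PRC1 genes 0 passed the adjusted threshold and 1 the unadjusted one, against 0.0202% and 4.74% of all genes tested. That gene was CBX2, a paralog of CBX7, at 0.43 (adjusted p = 0.935 from edgeR). The median of the 17 was 0.046. Of 10 proliferation genes 0 passed either threshold, with 4 estimates above and 6 below 0 and a median of -0.0113. The list ran from MKI67 at -0.199 to E2F2 at 0.444. In CPM 1 of the 10, the E2F transcription factor E2F2, had both CBX7 libraries above both controls, against 15.4% of all genes tested. Another 1, RRM2, had both below, against 14.8%. In TPM the 2 groups overlapped for E2F2 and for RRM2. MKI67, the gene of the Ki-67 antigen, had 67.8 and 80.0 TPM in control and 41.8 and 79.5 TPM in CBX7 libraries, with CBX7 replicate 1 again the low library. Its deposited length is 12716 bases, and its replicate 1 log2 ratio of CPM was -0.472. The decile of genes with a median length of 8868 bases had a median of -0.377 in that pair.

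CBX7, the reader, was set against EZH2, the writer, within each library. In control libraries CBX7 transcripts stood at 0.178 and 0.116 times the level of EZH2 and below EZH1, and in CBX7 libraries at 25.4 and 20.7 times EZH2 and above RBBP7, the most abundant PRC2 gene. CBX7 counts do not separate the introduced from the endogenous transcript.

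The genes with a course most like that of EZH2 over the 4 libraries, by the root-mean-square difference of centred log2 CPM, were KLHL7 (0.00793), VAMP4 (0.0103), BCAP29 (0.0126), C12orf29 (0.0126) and TRIM16L (0.0137). Of 11076 genes compared, 3003 were within 0.1 of EZH2, so such likeness over 4 libraries was common.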

How the data were processed

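Total RNA was sequenced in 4 libraries of T24 cells, 2 control and 2 overexpressing CBX7. The authors deposited 1 table with expected counts (88.2% to 88.9% of values were whole), TPM values and gene lengths. It also holds group means and the authors' own fold changes and p-values, which were not used. Per the labels, the submitters' processing notes name cutadapt 1.9.1, HISAT2 2.0.1, HTSeq 0.6.1, DESeq2 and hg19, with no role or order. The tool behind counts that are not whole is not given in the sources used here. Coordinates, GC content (96.4% of genes) and transcripts are from GENCODE release 29 and promoters from RefSeq (10 of 10 members matched), both GRCh38, whereas the notes name hg19.

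Rounded counts passed through filterByExpr and TMM scaling before the quasi-likelihood test of edgeR 4.0.16 under R 4.3.3 (glmQLFit, then glmQLFTest). Condition was the sole model term, and p-values were adjusted by Benjamini-Hochberg over all genes tested. Each standard error was obtained as the estimate over the root of its F statistic. Ratios within a library used TPM with no pseudocount. The code was tested on simulated data. Within-group chi-square per degree of freedom was 6.49 (control) and 59.7 (CBX7), so no library was a copy. The members, lists, motifs, rules and alternatives were chosen with earlier results of these data known. The genes named are the 10 members, CBX7, the lists of PRC2, PRC1, demethylase, proliferation and cell type genes, near copies of members, and the 5 genes most like EZH2. Alternatives were DESeq2 1.42.0 size factors and Wald test, no filter, the newer quasi-likelihood form, a replicate block, a length and GC correction (mgcv 1.9.3), both together, each library left out, and, for ratios, another length and a pseudocount of 1.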

Additional observations from a re-analysis of the deposited data

How the results depend on the processing

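Several PRC2 estimates depend on which CBX7 library is included. The count of PRC2 genes past an adjusted p of 0.05 was 0 in each fit to all 4 libraries, where their lowest adjusted p ranged from 0.483 to 1, and 0 to 3 over the fits that left out 1 library (3 without CBX7 replicate 2). The count over all genes was 3 in edgeR with TMM, 265 with no filter, 67 with DESeq2's Wald test, 361 with the replicate block, 5 after correction for length and GC and 175 with that correction plus the replicate block, and 45 to 5491 with 1 library left out (5491 without CBX7 replicate 2, 397 without CBX7 replicate 1). Fits with 1 library in a group assume that it varies like the other group.

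Both groups share replicate numbers, and no source says that a number marks a batch. Same-numbered libraries deviated together across 14862 genes (correlation 0.305; genes are not independent replicates), and with only 2 pairs the pairing remains unproven. The replicate block changed no call among the PRC2 genes: EZH1 was at -0.24 (adjusted p = 0.721) and EZH2 at -0.07 (adjusted p = 0.949 in edgeR), and with 2 libraries a group it leaves the ratio differences the same by construction.

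The median log2 fold change of the PRC2 genes went from -0.0418 to 0.0244 after correction for length and GC, and to 0.0224 with the block as well, and ranged from -0.0662 to -0.0172 with 1 library left out. With the correction, and with the block and the correction, the sign changed for SUZ12 (0.0285 and 0.0258), RBBP4 (0.126 and 0.107), AEBP2 (0.105 and 0.104) and PHF19 (-0.0144 and -0.0161). PHF19 was also negative with DESeq2's size factors (-0.000499) and its Wald test (-0.000496). Leaving out 1 library moved the estimate of SUZ12 from -0.327 to 0.161, and estimates lay from -0.0692 to 0.166 for EED, from -0.0778 to 0.127 for RBBP7, from -0.419 to 0.0393 for JARID2, from -0.131 to 0.0903 for AEBP2, from -0.066 to 0.0804 for PHF19, from -0.346 to -0.125 for EZH1, from -0.114 to -0.033 for EZH2, from -0.126 to -0.0264 for RBBP4 and from 0.00763 to 0.159 for MTF2. EZH1 and EZH2 stayed negative and MTF2 positive in every fit run. The core to accessory difference was 0.000307 with counts per kilobase, and with 1 library left out it ranged, in TPM, from -0.189 to -0.048, the EZH2 to EZH1 difference from 0.00252 to 0.302 and the PRC2.1 to PRC2.2 difference from -0.0995 to 0.724. The cause of these changes was not tested.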
